A study of Rattus norvegicus with 12 samples.

Results

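The 7 genes described here, Htra1, Aifm3, Prodh, Dusp3, Slc7a11, Igfbp5 and Aplnr, are 7 of the 17310 genes in the files, and lay on opposite sides of sham-operated rats in rats with an excess and in rats with a loss of corticosterone. They were selected on the measured values of 3 groups, because their levels moved in opposite directions from sham in high Cort and in ADX. In the edgeR fit used here, each had an adjusted p under 0.05 in both comparisons, with opposite signs. Htra1, Aifm3, Prodh and Dusp3 were higher in high Cort and lower in ADX. Slc7a11, Igfbp5 and Aplnr were lower in high Cort and higher in ADX. All 7 were among the 12856 genes that passed the filter on low counts.

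RNA was sequenced from hypothalamic tissue around the paraventricular nucleus (PVH) of male Wistar rats, wild type and 12 weeks old, in 6 groups of 2 libraries. The acute groups were labelled as acute corticosterone at 1 h (1 h acute) and at 3 h (3 h acute). The supplemented ADX rats had lost their adrenal glands and were given corticosterone. The high Cort rats had a high level of corticosterone for 12 days, the ADX rats were studied 7 days after adrenalectomy, and the sham rats had a sham operation. The labels give no dose or route, do not say whether the acutely treated rats still had their adrenal glands, name no vehicle group and do not say whether a library was 1 animal or a pool. If the libraries of a group are technical repeats, the p-values below measure technical spread only.

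Corticosterone is the adrenal steroid that serves rats as their glucocorticoid. It enters cells and binds the glucocorticoid and mineralocorticoid receptors, which act as transcription factors, and in the PVH it holds down the neurons that make corticotropin-releasing hormone and so closes the feedback loop of the stress axis. Adrenalectomy removes this brake, and added corticosterone tightens it. Because the tissue is a mixture of neurons, glia and vessels, fewer cells of a type and less RNA per cell cannot be told apart in any of the values below.

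The library totals ran between 17674161 and 36249008 fragments. The 7 genes had between 85 fragments, for Aplnr in its lowest library, and 12405 fragments, for Dusp3 in its highest. Levels are given as CPM, the count of a gene scaled to library size with TMM factors, for each library, replicate 1 before replicate 2, and changes as log2 fold change ± SE from edgeR. The feedback gene Crh, which encodes corticotropin-releasing hormone, averaged 3.25 ± 1.28 CPM in high Cort, 26.2 ± 0.960 CPM in ADX and 12.0 ± 2.09 CPM in sham (SD, n = 2 each). Fkbp5, whose product slows the same steroid receptors and which they induce, averaged 41.8 ± 6.60 CPM in high Cort, 27.0 ± 1.32 CPM in ADX and 28.3 ± 0.668 CPM in sham.

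The starts of these genes were compared first, because a shared regulatory sequence is a feature that the choice of genes did not use. RefSeq promoters of the GRCr8 rat assembly, 250 bases before to 50 bases after the annotated start, were at hand for 4 of the 7 genes (Htra1, Dusp3, Slc7a11 and Igfbp5). The 200 bases before each start are shown from 5′ to 3′ on the strand of the gene, the pair with higher levels in high Cort before the pair with lower levels. Capitals mark matches to TGACG, the shorter form of the cyclic AMP response element, and to TGACNNNGC, the antioxidant response element, on either strand.
Htra1, chr1:194927869-194928068, + strand: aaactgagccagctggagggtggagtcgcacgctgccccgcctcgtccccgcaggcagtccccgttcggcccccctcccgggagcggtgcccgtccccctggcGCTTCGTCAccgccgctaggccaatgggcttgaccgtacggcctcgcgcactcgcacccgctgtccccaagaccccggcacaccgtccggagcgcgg
Dusp3, chr10:87432036-87432235, - strand: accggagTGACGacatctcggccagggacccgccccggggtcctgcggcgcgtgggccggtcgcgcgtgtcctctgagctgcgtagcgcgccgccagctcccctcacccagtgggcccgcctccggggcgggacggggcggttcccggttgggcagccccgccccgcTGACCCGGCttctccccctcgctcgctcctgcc
Slc7a11, chr2:136668265-136668464, - strand: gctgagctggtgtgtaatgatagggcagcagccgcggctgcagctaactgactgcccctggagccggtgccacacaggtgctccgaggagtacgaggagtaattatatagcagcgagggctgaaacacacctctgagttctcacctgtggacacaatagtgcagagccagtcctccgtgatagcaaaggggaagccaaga
Igfbp5, chr9:81914188-81914387, - strand: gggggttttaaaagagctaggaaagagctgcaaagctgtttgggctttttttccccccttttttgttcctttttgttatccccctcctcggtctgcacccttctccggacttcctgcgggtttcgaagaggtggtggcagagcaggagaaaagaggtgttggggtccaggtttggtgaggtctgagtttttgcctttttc

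Each of these motifs occurred once in the promoter of Htra1 and once in that of Dusp3, and in neither of the others. In Htra1 both matches lie on the opposite strand and overlap, TGACG at bases 93 to 89 before the start inside TGACNNNGC at bases 97 to 89. In Dusp3 both lie on the strand of the gene and apart, at bases 193 to 189 and at bases 33 to 25. TGACG is present in 21.2% and TGACNNNGC in 12.1% of the 33469 promoters of the table. No promoter of the 4 held AGAACA, a single site of the glucocorticoid response element (20.7% of all promoters), ACANNNTGT, the core of its paired form (6.86%), TGACGTCA, the full cyclic AMP response element (1.83%), TGATGNAA, an amino acid response element (3.98%), or the E-box CACGTG (6.42%). These letters were sought in 300 bases only, so the search does not reach more distant sites. The content of G and C was 65.7% in Htra1 and 74.3% in Dusp3, 53.3% in Slc7a11 and 50.7% in Igfbp5, beside a median of 51.7% over all promoters.

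**Figure D1:**
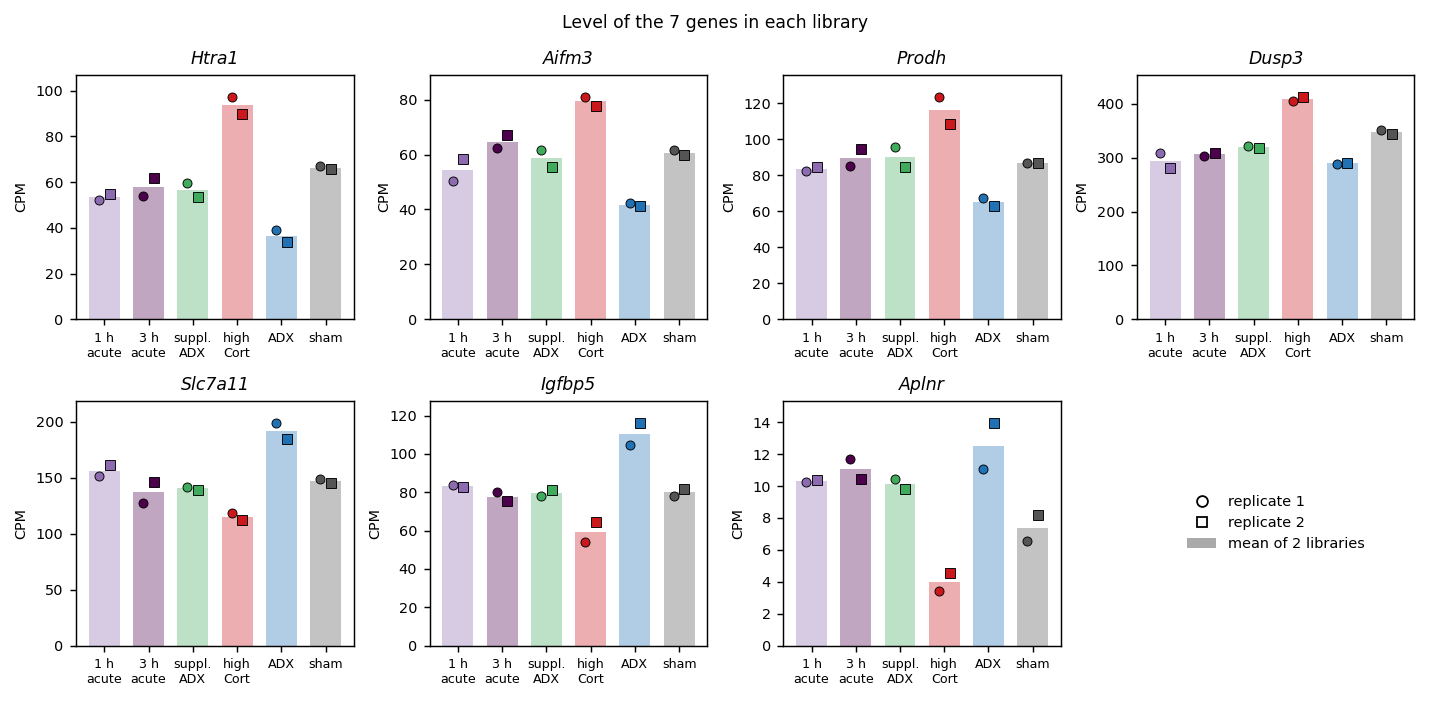
Levels in CPM of the 7 genes (y axes, each from 0) in the 12 libraries by group (x axes). Points are single libraries and bars the mean of 2; the high Cort and ADX bars stand at opposite ends for all 7 genes, with the other 4 groups between them.

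Among the genes that were higher in high Cort, Htra1 encodes a secreted serine protease that cleaves proteins of the extracellular matrix. It had 97.3 and 89.9 CPM in high Cort, 39.0 and 33.8 CPM in ADX, and 67.1 and 65.6 CPM in sham. No library of one group reached another. The log2 fold changes were 0.50 ± 0.08 for high Cort against sham and -0.86 ± 0.08 for ADX against sham, and high Cort was 2.57-fold above ADX. In the groups whose levels played no part in the choice, Htra1 had 52.1 and 54.6 CPM in 1 h acute, 54.0 and 61.8 CPM in 3 h acute, and 59.6 and 53.3 CPM in supplemented ADX. These 6 libraries overlapped each other and lay below both sham libraries and above both ADX libraries. The acute and supplemented ADX libraries were processed by the authors in another run than the high Cort, ADX and sham libraries, so levels of any gene set side by side across these parts of the study also differ in run.

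Prodh encodes proline dehydrogenase, the mitochondrial enzyme that opens the breakdown of proline toward glutamate. It had 124 and 109 CPM in high Cort, 67.2 and 63.2 CPM in ADX, and 86.7 and 87.05 CPM in sham, with log2 fold changes of 0.42 ± 0.07 and -0.41 ± 0.07 against sham. The other libraries had 82.2 and 84.6 CPM in 1 h acute, 85.1 and 94.7 CPM in 3 h acute, and 95.9 and 84.4 CPM in supplemented ADX. The 3 h acute and supplemented ADX libraries overlapped those of sham, while both 1 h acute libraries were below them.

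Aifm3 encodes a member of the family of apoptosis-inducing factor, a mitochondrial flavoprotein. It had 81.0 and 77.8 CPM in high Cort, 42.5 and 41.1 CPM in ADX, and 61.6 and 59.8 CPM in sham. The log2 fold changes were 0.39 ± 0.07 and -0.54 ± 0.07 against sham. It had 50.5 and 58.3 CPM in 1 h acute, 62.5 and 66.95 CPM in 3 h acute, and 61.6 and 55.6 CPM in supplemented ADX, so that both 3 h acute libraries exceeded every sham library and both 1 h acute libraries were below them.

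Dusp3 encodes a small dual-specificity phosphatase, also called VHR, that removes phosphate from the MAP kinases ERK and JNK. It had 404 and 413 CPM in high Cort, 289 and 290 CPM in ADX, and 351 and 345 CPM in sham. The log2 fold changes of 0.23 ± 0.04 and -0.26 ± 0.04 were the smallest in size of the 7 genes. Dusp3 had 308 and 281 CPM in 1 h acute, 304 and 309 CPM in 3 h acute, and 321 and 317 CPM in supplemented ADX. Replicate 2 of 1 h acute was thus below both ADX libraries, and all 6 libraries were below sham.

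Among the genes that were lower in high Cort, Slc7a11 encodes the light chain of the exchanger that takes up cystine and releases glutamate. It had 118 and 112 CPM in high Cort, 199 and 185 CPM in ADX, and 149 and 145 CPM in sham, with log2 fold changes of -0.35 ± 0.06 and 0.38 ± 0.06 against sham. It had 151 and 162 CPM in 1 h acute, 128 and 147 CPM in 3 h acute, and 142 and 139 CPM in supplemented ADX. The 1 h acute libraries were above those of sham and the supplemented ADX libraries below them.

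Igfbp5 encodes a secreted protein that binds insulin-like growth factors. It had 54.1 and 64.3 CPM in high Cort, 105 and 116 CPM in ADX, and 78.3 and 81.9 CPM in sham (log2 fold changes -0.43 ± 0.07 and 0.46 ± 0.07 against sham). It had 84.05 and 82.9 CPM in 1 h acute, 79.95 and 75.4 CPM in 3 h acute, and 78.0 and 81.25 CPM in supplemented ADX. These 6 libraries stayed close to sham, between 75.4 and 84.05 CPM.

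Aplnr encodes the receptor of the peptides apelin and Elabela, a G protein-coupled receptor of endothelium that in the rat is also made in the PVH. It had 3.44 and 4.56 CPM in high Cort, 11.1 and 13.9 CPM in ADX, and 6.55 and 8.20 CPM in sham. The log2 fold changes were -0.87 ± 0.16 and 0.76 ± 0.14 against sham, and high Cort was 3.09-fold below ADX. Aplnr had 10.25 and 10.4 CPM in 1 h acute, 11.7 and 10.5 CPM in 3 h acute, and 10.5 and 9.79 CPM in supplemented ADX. All 6 libraries were above both sham libraries, and they lay closer to ADX than to sham on average.

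The values against sham are those that chose the genes and carry no test here; both comparisons share the sham libraries. Over all genes edgeR called 0.513% higher and 0.358% lower in high Cort, and 0.132% higher and 0.101% lower in ADX. Opposite calls in both made up 0.0389% of genes for the direction of Htra1 and 0.0233% for that of Slc7a11. Another gene, Abcg2, which encodes an efflux transporter, met the same condition (log2 fold changes 0.91 and -0.41) and is not among the 7. Nearest to the threshold inside it was Prodh, whose adjusted p in ADX was 0.0451. Just outside lay the connexin gene Gjb6 (0.44 in high Cort and -0.37 in ADX) and Crh (-1.85 and 1.13), both called in high Cort and both with an adjusted p of 0.0695 in ADX. Heph, an iron oxidase gene called in ADX (0.55 in high Cort and -1.07 in ADX), had an adjusted p of 0.0747 in high Cort.

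The calls depend on single libraries, for these 7 genes and over all genes. In high Cort and in ADX, some or all of the 7 genes lost their call whenever 1 library was omitted. In high Cort all of them lost it without sham replicate 2, and likewise without high Cort replicate 1. Such a fit leaves 1 library in a group. Over all genes, some of these fits called fewer genes than the fit on all libraries and others called more. With limma on log2 FPKM, the condition of an adjusted p under 0.05 was met by 1 gene in high Cort and by 2 in ADX. At a pseudocount of 1, limma called 22 genes over all in high Cort and 5 in ADX. Htra1 in ADX met it under all 13 alternatives. The direction of all 7 genes held in both comparisons under these 13 alternatives, with log2 fold changes for Htra1 in ADX between -0.97 and -0.76 and for Aplnr in high Cort between -1.11 and -0.54. The alternatives refit the libraries that chose the genes, so a kept direction or call is no test.

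The comparisons of the acute groups with supplemented ADX, and with each other, rest on 6 libraries whose levels the choice did not compare. All 6 were scaled in the same processing run. Their spread did enter the edgeR fit on all 12 libraries, which also gave the adjusted p values against sham. These comparisons ask whether the 7 genes differed within hours of acute corticosterone. Of the 7 genes, edgeR's quasi-likelihood test called none at 1 h (0.0467% of all genes called) and none at 3 h (0.00778%). It called none between 3 h and 1 h (0.0233%). DESeq2 called none of them either, where it called 76, 34 and 24 of the 12856 genes in these comparisons. At 1 h DESeq2 gave no adjusted p for Aplnr. At an unadjusted edgeR p under 0.05 there were 2 of 7 at 1 h, 0 at 3 h and 2 between 3 h and 1 h. Such a p was found for 14.7%, 12.5% and 10.6% of all genes. The 2 groups did not overlap for 3 of the 7 genes at 1 h (46.5% of all genes), for 3 at 3 h (45.8%) and for 5 between the times (38.9%).

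At 1 h against supplemented ADX, the 4 genes that were higher in high Cort all had negative values and the other 3 positive ones, down to 0.02 ± 0.14 for Aplnr. Dusp3 averaged 295 CPM in 1 h acute and 319 CPM in supplemented ADX (log2 fold change -0.11 ± 0.04, adjusted p = 0.267 by edgeR). Slc7a11 averaged 156.5 CPM in 1 h acute and 141 CPM in supplemented ADX (0.15 ± 0.06, adjusted p = 0.278). Without 1 h acute replicate 1, Dusp3 had -0.18 and an adjusted p of 0.0363, in a fit that called 624 genes in all, against 6 with both libraries. The 95% intervals of Htra1 (-0.26 to 0.09), Aifm3 (-0.26 to 0.03), Prodh (-0.27 to 0.05), Igfbp5 (-0.08 to 0.22) and Aplnr (-0.27 to 0.31) all held 0.

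At 3 h against supplemented ADX the signs were mixed on both sides: Htra1 and Aifm3 had positive values and Prodh and Dusp3 negative ones, while Slc7a11 and Igfbp5 had negative values and Aplnr a positive one. The 95% intervals of Htra1 (-0.14 to 0.21), Prodh (-0.16 to 0.16), Dusp3 (-0.15 to 0.04), Slc7a11 (-0.17 to 0.10) and Igfbp5 (-0.19 to 0.12) held 0. Aplnr, with the fewest fragments, had the widest (-0.17 to 0.42). Aifm3 averaged 64.7 CPM in 3 h acute and 58.6 CPM in supplemented ADX (0.14 ± 0.07, adjusted p = 0.411 by edgeR).

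Between the acute times, Aifm3 had the largest value in size of the 7 genes. It averaged 64.7 CPM at 3 h and 54.4 CPM at 1 h, with no overlap (0.26 ± 0.07, unadjusted p = 0.00213 and adjusted p = 0.199 by edgeR's quasi-likelihood test). Its adjusted p ran no lower than 0.0681 over the 13 alternatives. Leaving out single libraries, the value was 0.16 without 1 h acute replicate 1 and up to 0.36 without 1 h acute replicate 2. Slc7a11 averaged 137 CPM at 3 h and 156.5 CPM at 1 h (-0.19 ± 0.06, adjusted p = 0.310), with -0.09 without 3 h acute replicate 1 and -0.29 without 3 h acute replicate 2. The summed level of 4 blood markers was 54.5 and 66.8 CPM at 3 h and 33.5 and 27.6 CPM at 1 h. All 4 had positive values between the times, and the globin gene Hbb rose (0.91 ± 0.14, adjusted p = 0.0413 by edgeR). The part of blood in the values of Aifm3 and Slc7a11 was not tested. The summed level of 13 markers of the neighbouring thalamus was 1826 to 2647 CPM at 1 h, 2503 to 2621 CPM at 3 h and 3006 to 3108 CPM in supplemented ADX. With the thalamus score (the mean log2 CPM of these markers) as a covariate, Aifm3 had 0.33 between the times (adjusted p = 0.0681). At 1 h against supplemented ADX, this covariate gave -0.04 for Dusp3, 0.05 for Slc7a11, -0.28 for Aifm3, -0.18 for Htra1, -0.17 for Prodh, 0.14 for Igfbp5 and 0.16 for Aplnr, none of them called. At 3 h against supplemented ADX it gave 0.06 for Aifm3, -0.02 for Dusp3 and -0.09 for Slc7a11.

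**Figure D2:**
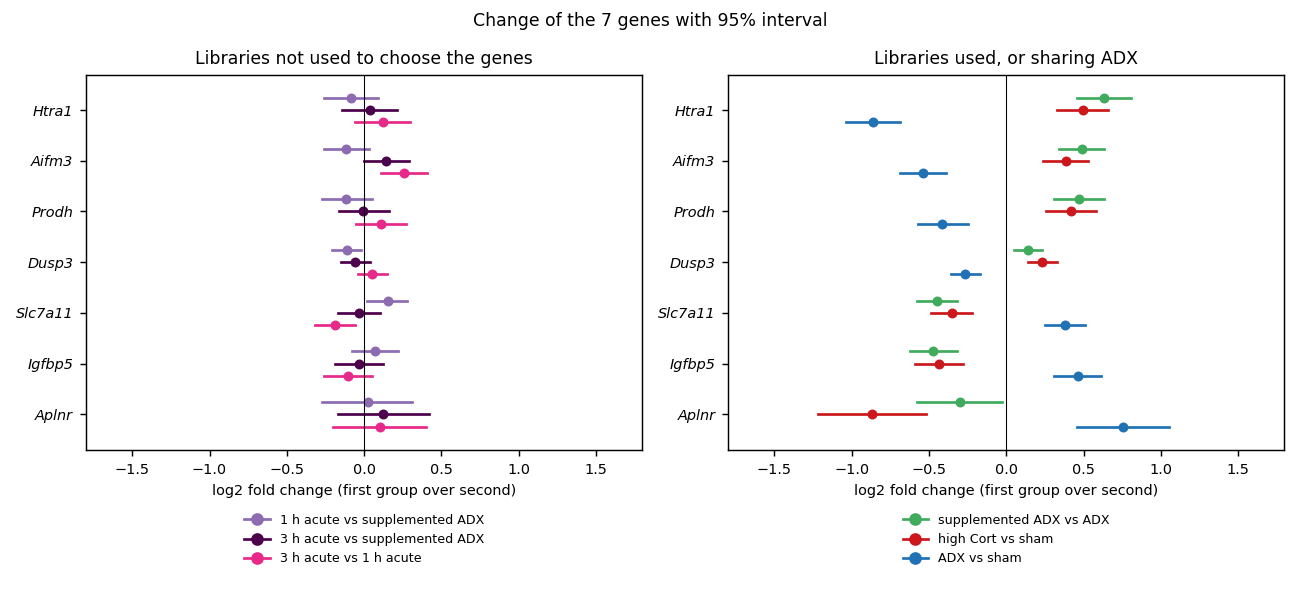
Log2 fold changes of the 7 genes (points) with 95% intervals (lines), the first group of each pair over the second. The left panel holds libraries whose levels the choice of genes did not compare, where values lie between -0.19 and 0.26. The right panel holds comparisons with libraries that the choice used, shown as a description.

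The comparison of supplemented ADX with ADX asks how far added corticosterone moved the genes from their level after adrenalectomy. It shares the ADX libraries with the choice of the genes, which favours values opposite in sign to those of ADX against sham, and it crosses the processing runs, so it is given without a test. Against the distance from ADX to sham, supplemented ADX covered 113% for Prodh (log2 fold change 0.47 ± 0.07), 117% for Slc7a11 (-0.45 ± 0.06), 102% for Igfbp5 (-0.47 ± 0.07) and 90.8% for Aifm3 (0.49 ± 0.07). It covered 73.2% for Htra1 (0.63 ± 0.08), 52.9% for Dusp3 (0.14 ± 0.04) and 39.9% for Aplnr (-0.30 ± 0.13). The mean thus passed that of sham for Prodh, Slc7a11 and Igfbp5 and stayed short of it for the other 4 genes.

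For all 7 genes the group means of supplemented ADX, 1 h acute and 3 h acute lay between those of high Cort and ADX on the log2 scale. Over all genes tested this held for 43.9%, 27.5% and 29.4% of genes. The genes were chosen with high Cort and ADX on opposite sides of sham, which favours such an order, so it is no test. From the highest to the lowest mean, Htra1 ran high Cort, sham, 3 h acute, supplemented ADX, 1 h acute and ADX, of which 3 h acute, supplemented ADX and 1 h acute overlapped each other and no other group. Aplnr ran ADX, 3 h acute, 1 h acute, supplemented ADX, sham and high Cort. Its ADX libraries overlapped those of 3 h acute, and those of 1 h acute overlapped those of supplemented ADX. Dusp3 was the other gene whose ADX libraries overlapped a group given corticosterone, that of 1 h acute.

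A measure apart from the groups is the difference between the 2 libraries of a group. On the log2 CPM scale, Htra1 had replicate 1 minus replicate 2 differences of -0.07 in 1 h acute, -0.19 in 3 h acute, 0.16 in supplemented ADX, 0.11 in high Cort, 0.21 in ADX and 0.03 in sham. Prodh followed it with -0.04, -0.15, 0.18, 0.19, 0.09 and -0.01 in the same order of groups (Pearson r = 0.89 over the 6 groups). For comparison, 0.995% of 11259 genes had an r with Htra1 at least as high. Aifm3 had r = 0.78 with Htra1, which 3.85% of genes reached, and 0.77 with Prodh, which 7.49% reached. Igfbp5 had r = -0.79 with Htra1, -0.83 with Prodh and -0.61 with Aifm3, and 3.46%, 3.39% and 16.8% of genes had an r as low with these genes. These r values describe 6 points, each taken from the same 2 libraries for every gene. A difference between the 2 in preparation, dissection or depth may therefore enter the values of all genes. The replicate numbers within a group are arbitrary. Another numbering would give other r values here and below, and other counts of their signs.

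Slc7a11 behaved otherwise within groups than between them, and so did Dusp3 with most of the genes. Between groups Slc7a11 was lowest where Htra1 was highest, and over all 12 libraries the pair had r = -0.87. Within groups its replicate differences ran with those of Htra1 (r = 0.94, reached by 0.293% of genes) and against those of Igfbp5 (r = -0.89, 1.65% of genes as low) and Aplnr (r = -0.80, 4.63% as low). Igfbp5 and Aplnr ran together (r = 0.84, 2.82% as high). Within groups Dusp3 had r of -0.22 with Htra1, -0.61 with Aifm3 and 0.40 with Igfbp5. Over all 12 libraries these were 0.88, 0.77 and -0.80. With Slc7a11 the sign of Dusp3 was the same in both (-0.24 and -0.78). In all, 4 of 9 pairs of genes on the same side in high Cort had a positive r and 7 of 12 pairs on opposite sides a negative one. The difference in thalamus score between the libraries of a group was 0.73 in 1 h acute and -0.40 in sham; its r with the genes ran between -0.79 for Aifm3 and 0.73 for Dusp3.

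**Figure D3:**
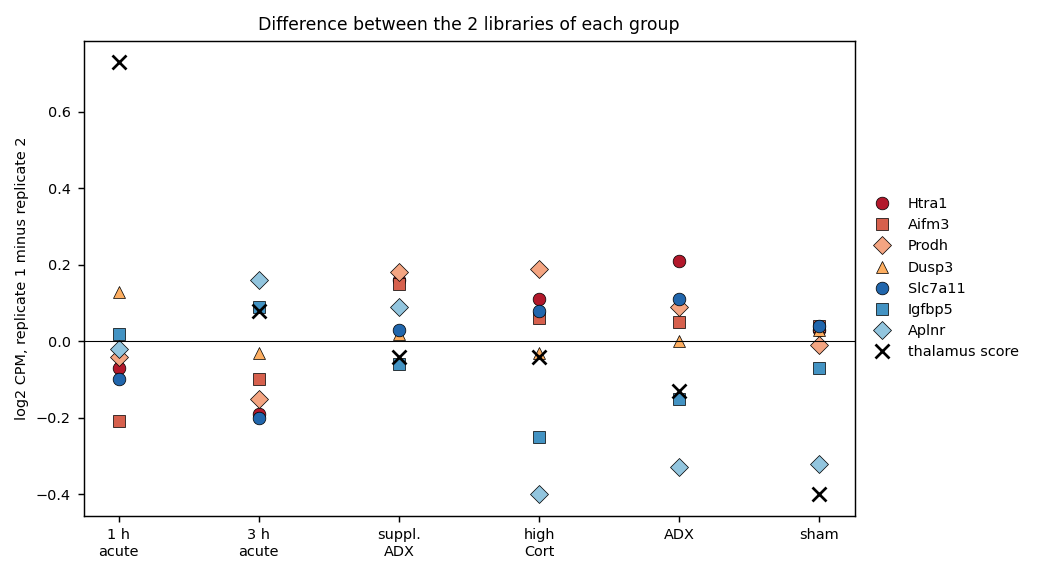
Replicate 1 minus replicate 2 in log2 CPM (y axis) for the 7 genes and the thalamus score in each group (x axis). Htra1, Aifm3, Prodh and Slc7a11 sit together on one side of 0 in 1 h acute, 3 h acute, supplemented ADX, high Cort and ADX.

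Prodh and Aifm3 lie on 1 rat chromosome, 11, with 20 protein-coding genes between them in the RefSeq annotation. The remaining members lie on chromosomes 1, 2, 3, 9 and 10. Of the 20 genes between, 11 were tested, and edgeR called none of them in high Cort or in ADX against sham. Their log2 fold changes ran between -0.22 for Slc25a1, a mitochondrial citrate carrier, and 0.07 for Lztr1 in high Cort, and between -0.20 for Dgcr6 and 0.22 for P2rx6 in ADX. Outside the pair, Rtn4r, the Nogo receptor gene next to Prodh, had 0.04 ± 0.12 in high Cort and -0.46 ± 0.12 in ADX (adjusted p = 0.150). None of the 5 tested outer neighbours was called.

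**Figure D4:**
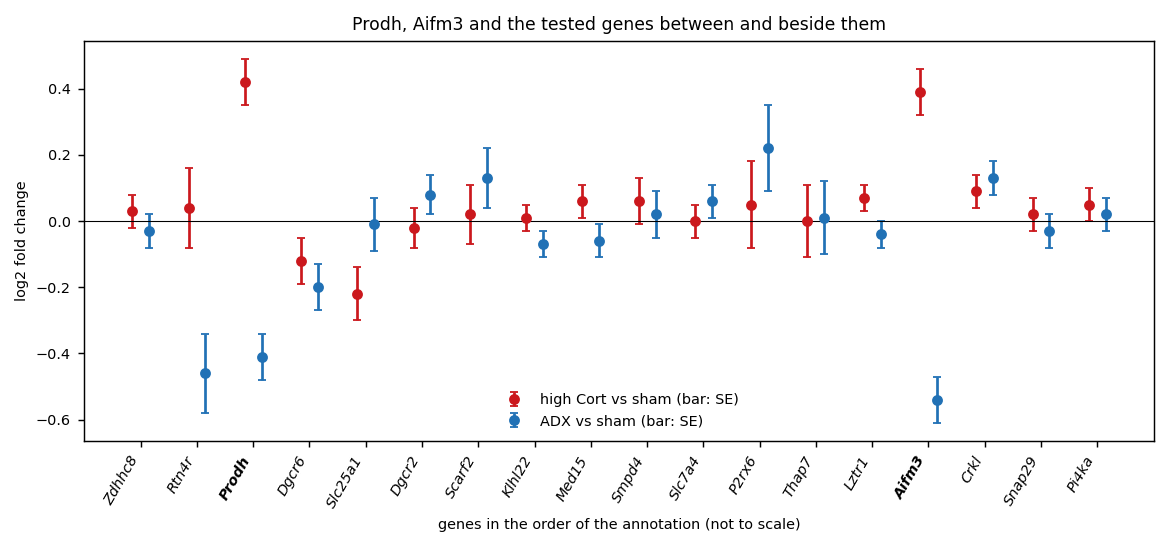
Log2 fold changes against sham (y axis; bars are SE) of the tested genes from Zdhhc8 to Pi4ka in their order on the chromosome (x axis, not to scale). Prodh and Aifm3 (bold) stand at 0.39 to 0.42 in high Cort and -0.54 to -0.41 in ADX, and the genes between them between -0.22 and 0.22.

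Relatives and partners of the 7 genes were read from lists. Per length, sham levels in FPKM (values corrected for the length of the transcript) put Dusp3 at 85.0, Igfbp5 at 56.0, Prodh at 43.5, Htra1 at 36.4, Aifm3 at 28.5, Slc7a11 at 16.6 and Aplnr at 2.11. Among proteases of the Htra1 family, Htra2 had 16.4 FPKM in sham, Htra3 3.83 and Htra4 0.208, and none of these 3 was called in any of the 5 comparisons. Neither Aifm1 nor Aifm2 was called. Of 16 tested genes of proline and glutamate metabolism besides Prodh, 1 rose in high Cort and none fell. This was Glul, the glutamine synthetase gene, with 1915 ± 53.9 CPM in high Cort and 1294 ± 81.9 CPM in sham (log2 fold change 0.57 ± 0.07, adjusted p = 0.00423 by edgeR). In ADX Glul averaged 1294 ± 81.6 CPM and none of the 16 was called.

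None of the 18 tested genes of cystine uptake, glutathione and stress control besides Slc7a11 was called in the 5 comparisons. Slc3a2, which encodes the heavy chain that carries the Slc7a11 protein to the membrane, averaged 132 ± 6.94 CPM in high Cort, 130 ± 1.77 CPM in ADX and 120 ± 0.129 CPM in sham. The list had a median log2 fold change of 0.06 in high Cort and -0.09 in ADX, against 0.01 and 0.00 over all genes. Of 12 tested genes of the insulin-like growth factor system none was called; Igf2 stood at 12.5 ± 4.22 CPM in high Cort and 26.2 ± 0.272 CPM in sham (-1.05 ± 0.22, adjusted p = 0.109). The ligand gene Apln averaged 22.0 ± 1.36 CPM in high Cort, 21.2 ± 1.66 CPM in ADX and 22.2 ± 0.434 CPM in sham, and none of 6 tested apelin genes was called. Likewise none of 12 tested genes of the small phosphatases and their substrates was called.

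The genes most like the 7 were read from the 12 libraries. Among the 11259 genes whose log2 CPM averaged 1 or more, Htra1 was closest to the aldolase gene Aldoc (r = 0.973), and Aifm3 to the connexin gene Gjb6 (0.976). Prodh was closest to the receptor kinase gene Ret (0.977). Igfbp5 was closest to the water channel gene Aqp4 (0.963) and the endothelin receptor gene Ednrb (0.960), and most unlike Prodh (-0.988). Aplnr was closest to Crh (0.972), Dusp3 to the potassium channel gene Kcnj11 (0.956) and Slc7a11 to Sept2 (0.938). These r values hold the group differences that chose the genes.

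Markers of other cell types were read beside these values. The summed level of 10 astrocyte markers was 6384 and 6275 CPM in high Cort and 6305 and 6349 CPM in ADX. In sham it was 6388 and 6309 CPM. The sum hides opposite moves of single markers. In high Cort 1 of the 10 rose, Gjb6 (0.44 ± 0.08), and 2 fell, Aqp4 (-0.26 ± 0.05) and Gfap (-0.41 ± 0.07). In ADX none was called, and Gjb6 had -0.37, Aqp4 0.2 and Gfap 0.1. Aldoc, called in neither, had 0.25 in high Cort and -0.45 in ADX. Of the 10, 6 had a positive value in high Cort and 4 in ADX. Aldoc, Gjb6 and Aqp4 are the genes named above as closest to Htra1, Aifm3 and Igfbp5. Aplnr is made in endothelium and, in the rat, also in the PVH. For the endothelium, 11 markers summed to 505 and 522 CPM in high Cort and 542 and 556 CPM in ADX. They summed to 599 and 587 CPM in sham. In high Cort 3 of these 11 fell: Kdr, a receptor of vascular endothelial growth factor (-0.85 ± 0.08), Egfl7 (-0.47 ± 0.10) and Slco1c1, a thyroid hormone transporter (-0.35 ± 0.05). In ADX Slco1c1 alone fell (-0.30 ± 0.05), while Aplnr was higher there. The part of the vessels, or of PVH cells, in the values of Aplnr was not tested.

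The 13 thalamus markers summed to 4256 and 4389 CPM in high Cort, 2854 and 3157 CPM in ADX, and 3557 and 4476 CPM in sham. None was called, and all 13 had a negative value in ADX. Across the 12 libraries the thalamus score had r = 0.80 with Dusp3, 0.48 with Htra1, 0.37 with Prodh and 0.33 with Aifm3. It had r = -0.63 with Aplnr, -0.43 with Slc7a11 and -0.36 with Igfbp5. The part of thalamus tissue in these values was not tested. With the score as a covariate, the values in ADX were -0.21 for Dusp3, 0.87 for Aplnr and -0.94 for Htra1. In that fit 3 of the 7 genes, Htra1, Aifm3 and Igfbp5, had an edgeR adjusted p under 0.05 in ADX. Dusp3, Aplnr, Prodh and Slc7a11 did not. Over all genes the fit called 16 in ADX, against 30 without the score. The fit uses the libraries that chose the genes, so a kept or lost call is no test.

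The 7 tested markers of the PVH and hypothalamus, Crh among them, summed to 466 and 422 CPM in high Cort, 708 and 710 CPM in ADX, and 532 and 736 CPM in sham. In high Cort 0 of the 7 markers had a positive value (median log2 fold change -0.44) and Crh fell. In ADX 6 of the 7 had a positive value (median 0.24) and none was called. The 4 blood markers summed to 25.5 and 22.2 CPM in high Cort, 26.8 and 20.8 CPM in ADX, and 35.7 and 41.5 CPM in sham. All 4 had negative values in both comparisons and none was called. No tested marker of oligodendrocytes, microglia, neurons in general, leptomeninges or choroid plexus was called in the 5 comparisons. The part of these cells in the values of the 7 genes was not tested.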

How the data were processed

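Expression was measured by mRNA sequencing in 12 libraries of 6 groups of 2. The submitters' processing notes name TopHat2 2.1.1, CASAVA 1.8.2, the build rn6 and Cufflinks 2.2.1. The gene annotation is not given in the sources used here. Per the file headers, the deposited tables are Cuffdiff read group tables. Raw fragments are expected counts that the authors left unscaled; 0.751% of the values were not whole and were rounded. The deposited FPKM were scaled by the authors in 2 runs of 6 libraries: sham, high Cort and ADX in one, the other groups in the other.

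The main test used edgeR 4.0.16 under R 4.3.3 (filterByExpr with a minimum count of 10 and a minimum total of 15, TMM, robust quasi-likelihood fit with a coefficient per group on all 12 libraries, Benjamini-Hochberg adjustment over 12856 genes, threshold 0.05), because an exact permutation of 2 against 2 libraries can give no p under 0.333. SE is the log2 fold change over the square root of F. The spread is that of 6 residual and a median of 8.9 prior degrees of freedom. The fits were tested on simulated data. Alternatives used limma 3.58.1 and DESeq2 1.42.0.

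The members, lists and tests were chosen with earlier results of these data known. The naming rule took the 7 genes, the 3 most like and the 1 least like each, the genes at the edge of the rule, called genes and relatives in the lists, and the neighbours of Prodh and Aifm3; the text gives part of these, and 1 gene is not reported here. Igf2 and the endothelial markers were named after their values were seen. Promoters are RefSeq GRCr8. Intervals are 95% intervals of the fit.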

Additional observations from a re-analysis of the deposited data

How the results depend on the processing

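The number of genes called moved with the processing. At 1 h against supplemented ADX, where 6 genes were called, no filter on low counts gave 16, DESeq2 76, the thalamus score as a covariate 0, and single libraries left out 1 to 624, the 624 without 1 h acute replicate 1. At 3 h against supplemented ADX, with 1 gene called, no filter gave 20, DESeq2 34, limma on log2(FPKM + 1) 2, a fit of the 4 libraries alone 154, the thalamus score 2 and single libraries left out 0. Between 3 h and 1 h, with 3 called, the values were 5 without a filter, 24 by DESeq2, 10 by limma with either pseudocount, 9 with the 4 libraries alone and 0 to 35 with single libraries left out, the 35 without 1 h acute replicate 1.

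In high Cort, with 112 called, limma gave 22 and 18 at pseudocounts of 1 and 0.1, the 4 libraries alone 46, the thalamus score 179 and single libraries left out 23 to 121, the 23 without high Cort replicate 1 and 40 without sham replicate 2. In ADX, with 30 called, no filter gave 48, DESeq2 128, limma 5 with either pseudocount, the thalamus score 16 and single libraries left out 4 to 148, the 4 without ADX replicate 1 and the 148 without sham replicate 1. The labels do not pair the libraries, and same-numbered libraries share only a number. With the replicate block the counts were 3 at 1 h, 1 at 3 h, 4 between the times, 105 in high Cort and 19 in ADX. A crossed pairing, chosen after seeing the data, gave 40 at 1 h.

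Leaving out single libraries, the number of the 7 genes called at 1 h ran between 0 and 1, the 1 being Dusp3. Values near 0 changed sign in uncalled genes. At 3 h against supplemented ADX, the thalamus score gave -0.017 for Htra1 and 0.001 for Igfbp5, and single libraries left out gave -0.065 to 0.13 for Htra1, -0.091 to 0.090 for Prodh, -0.14 to 0.064 for Slc7a11 and -0.077 to 0.006 for Igfbp5. They gave -0.023 to 0.069 for Aplnr at 1 h and -0.007 to 0.13 for Dusp3 between the times. The cause of these changes was not tested. Aplnr, with as few as 85 fragments in a library, had the widest intervals.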
